A study of Mus musculus with 6 samples.

Results

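The brakes and accelerators of the G1 phase of the cell cycle were followed across the cell types of the fetal gonad. They were 9 genes picked by symbol from the 26251 genes listed in these libraries: the CIP/KIP inhibitors *Cdkn1a* (p21) and *Cdkn1b* (p27), the INK4 inhibitors *Cdkn2a* (p16 and p19ARF), *Cdkn2b* (p15), *Cdkn2c* (p18) and *Cdkn2d* (p19), and the D-type cyclins *Ccnd1*, *Ccnd2* and *Ccnd3*. All 9 genes were listed in all 6 libraries. In supporting cells, *Cdkn1b* separated all 3 groups, at 41.8 CPM (UMIs of a gene per 1000000 UMIs of the summed cells) in control XY, 117 CPM in dKO XY and 677 CPM in control XX. *Ccnd1* had another order, since it was highest in dKO XY, at 83.0 CPM against 4.59 CPM in control XY and 13.0 CPM in control XX.

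The libraries came from gonads of mouse embryos at E15.5. Control XY testes and control XX ovaries were *Amh*+/+; *Inhbb*+/+, and dKO XY testes were *Amh*-/-; *Inhbb*-/- and so carried null alleles of the genes for anti-Müllerian hormone and an activin B subunit. Each group had 2 libraries. According to the study's methods both gonads of an animal were pooled and dissociated with enzymes, and the cells were frozen, stored in liquid nitrogen and thawed before droplet capture. The libraries were made with the 10x Genomics protocol. The methods call the libraries biological replicates, but the labels do not give their animals, so p-values measure the spread between these libraries only. The tests estimate this spread partly from all genes together.

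D-type cyclins bind CDK4 and CDK6, and the kinases then phosphorylate the Rb family, which releases E2F factors and lets a cell pass from G1 into S phase. INK4 proteins bind CDK4 and CDK6 themselves, whereas CIP/KIP proteins bind complexes of cyclins with several CDKs. In the fetal ovary pregranulosa cells leave the cell cycle and carry p27, whereas fetal Sertoli cells keep dividing.

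After the filter 39350 cells remained of 68064 barcodes, 4781 to 8569 per library, with a median of 18415 to 27124 UMIs per cell and 118475468 to 221675316 UMIs per library. The share of barcodes with at least 25% mitochondrial UMIs, which were left out, was 24.4% and 28.3% in dKO XY, above the 4.50% and 7.65% of control XY and the 9.35% and 2.22% of control XX. Among the supporting cells that were kept, the median share of mitochondrial UMIs overlapped between groups, with 6.86% and 10.95% for control XY, 7.89% and 9.85% for dKO XY, and 7.89% and 5.74% for control XX. The part of the barcodes left out in any dKO XY result was not tested. Supporting cells, the lineage of Sertoli and granulosa cells, numbered 262 and 545 in the control XY libraries, 1309 and 1013 in those of dKO XY and 3000 and 1187 in those of control XX. Those of control XY lay in cluster 5 of the clustering of all cells, as did 95.9% of those of dKO XY, whereas 99.6% of those of control XX lay in cluster 3. *Amh* was at 2025 and 1873 CPM in supporting cells of control XY, at 17.6 and 15.4 CPM in dKO XY and at 1.36 and 1.43 CPM in control XX. *Inhbb* transcript remained in dKO XY, at 40.6 and 49.4 CPM beside 160 and 182 CPM in supporting cells of control XY and 37.4 and 25.6 CPM in control XX. Of the barcodes, 175 of 39174 distinct ones occurred in more than 1 library.

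Markers of the supporting lineage were present in the supporting cells of every library, but their sum moved with the groups, as did other markers. These 7 markers summed to 884 and 946 CPM in control XY, 1368 and 1357 CPM in dKO XY and 2286 and 2222 CPM in control XX. The 11 Sertoli markers summed to 5476 and 5016 CPM in control XY, 5691 and 3870 CPM in dKO XY and 768 and 929 CPM in control XX. The 8 granulosa markers summed to 855 and 831 CPM, 2195 and 2664 CPM, and 4131 and 3736 CPM in the same order. Summed germ cell markers, all 6 of them with UMIs in each library, were at 75.5 and 22.6 CPM in supporting cells of control XY, 154 and 209 CPM in dKO XY and 95.2 and 129 CPM in control XX, against 3092 to 4202 CPM in germ cells. Of the 7 epithelial markers *Muc16* was at 0 in both control XY libraries, and *Lrrn4* and *Msln* were at 0 in 1 of them. The epithelial sums ranged from 45.9 to 89.3 CPM in the XY groups and were at 208 and 242 CPM in control XX. The 8 interstitial markers summed to 1046 and 1225 CPM in control XY, 675 and 619.7 CPM in dKO XY and 497.6 and 674 CPM in control XX, and the 7 pericyte markers to 72.0 and 84.2 CPM, 42.6 and 49.9 CPM, and 14.1 and 19.4 CPM in the same order. The 6 Leydig markers summed to 119 and 225 CPM, 217 and 267 CPM, and 98.2 and 85.95 CPM, with *Insl3* at 0 in 1 control XX library. In the low-cycle cells described below the Leydig sums were 147 and 649 CPM, 334 and 524 CPM, and 98.9 and 86.8 CPM. The parts of these other cell types in the results below were not tested, except where values without cells that held a germ cell marker UMI are given.

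Levels of a gene between cell types are described first. They are sums over at least 20 cells per library, on the CPM scale, and since the libraries are tags of transcript ends no level of a gene is set against that of another gene. Fewer cells of a kind within a sum and less RNA per cell cannot be told apart in such sums.

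*Cdkn1b* was highest in supporting cells of control XX and dKO XY, but not of control XY. Control XX supporting cells had 650 and 704 CPM and those of dKO XY 107 and 127 CPM, while the other 7 cell types in all groups, as well as control XY supporting cells, lay between 16.3 and 87.2 CPM. Among those types the ranges over libraries of immune cells (44.4 to 79.1 CPM), pericytes (50.3 to 71.5 CPM), epithelial cells (31.3 to 87.2 CPM), interstitial cells (49.2 to 59.8 CPM) and endothelial cells (40.1 to 55.4 CPM) overlapped. Leydig cells (22.4 to 31.4 CPM) and germ cells (16.3 to 45.2 CPM) were lowest on average and overlapped with each other and with epithelial cells. Germ cells of control XX, at 41.5 and 45.2 CPM, lay within the range of endothelial cells. *Cdkn1a*, a target of p53 and a general inhibitor of cyclin–CDK complexes, was highest in immune cells, at 77.8 to 155 CPM, and lowest on average in Leydig cells, at 2.08 to 5.42 CPM, a range that overlapped with those of epithelial, interstitial, endothelial and supporting cells and of pericytes. In supporting cells it spanned 3.64 to 40.5 CPM over the groups.

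The INK4 genes had a different order of cell types from each other. *Cdkn2a* was a germ cell transcript, at 69.2 to 173 CPM in the germ cells of dKO XY and control XX, and at most 6.54 CPM in any sum of another cell type. *Cdkn2b* did not exceed 4.47 CPM in any of these sums. *Cdkn2c*, p18, was highest in immune cells (18.8 to 36.9 CPM) and pericytes (12.4 to 27.1 CPM), whose ranges overlapped, and lowest on average in Leydig cells (0.833 to 1.45 CPM), which overlapped with control XX supporting cells (0.572 and 1.43 CPM). *Cdkn2d*, the INK4 protein p19, was highest in germ cells (60.3 to 82.9 CPM) and immune cells (47.6 to 84.0 CPM), again with overlapping ranges, and at 19.5 to 48.3 CPM elsewhere.

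Of the D-type cyclins, *Ccnd1* was the endothelial one, at 243 to 470 CPM in endothelial cells with no overlap with any other cell type. In supporting cells it ranged from 3.37 to 98.6 CPM between groups. *Ccnd2* was highest on average in supporting cells, at 297 to 551 CPM, which overlapped with pericytes (204 to 365 CPM), epithelial cells (159 to 394 CPM) and interstitial cells (177 to 323 CPM). Within control XX it was higher in pericytes (351 and 365 CPM) than in supporting cells (344 and 345 CPM). Germ cells had least of it on average, at 30.3 to 55.6 CPM, a range within that of immune cells (28.4 to 76.05 CPM). *Ccnd3* was highest on average in interstitial cells, at 221 to 330 CPM, which overlapped with epithelial cells (155 to 343 CPM) and immune cells (168 to 224 CPM), and lowest in germ cells, at 36.5 to 66.6 CPM, and the 6 other types overlapped with each other.

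**Figure D1:**
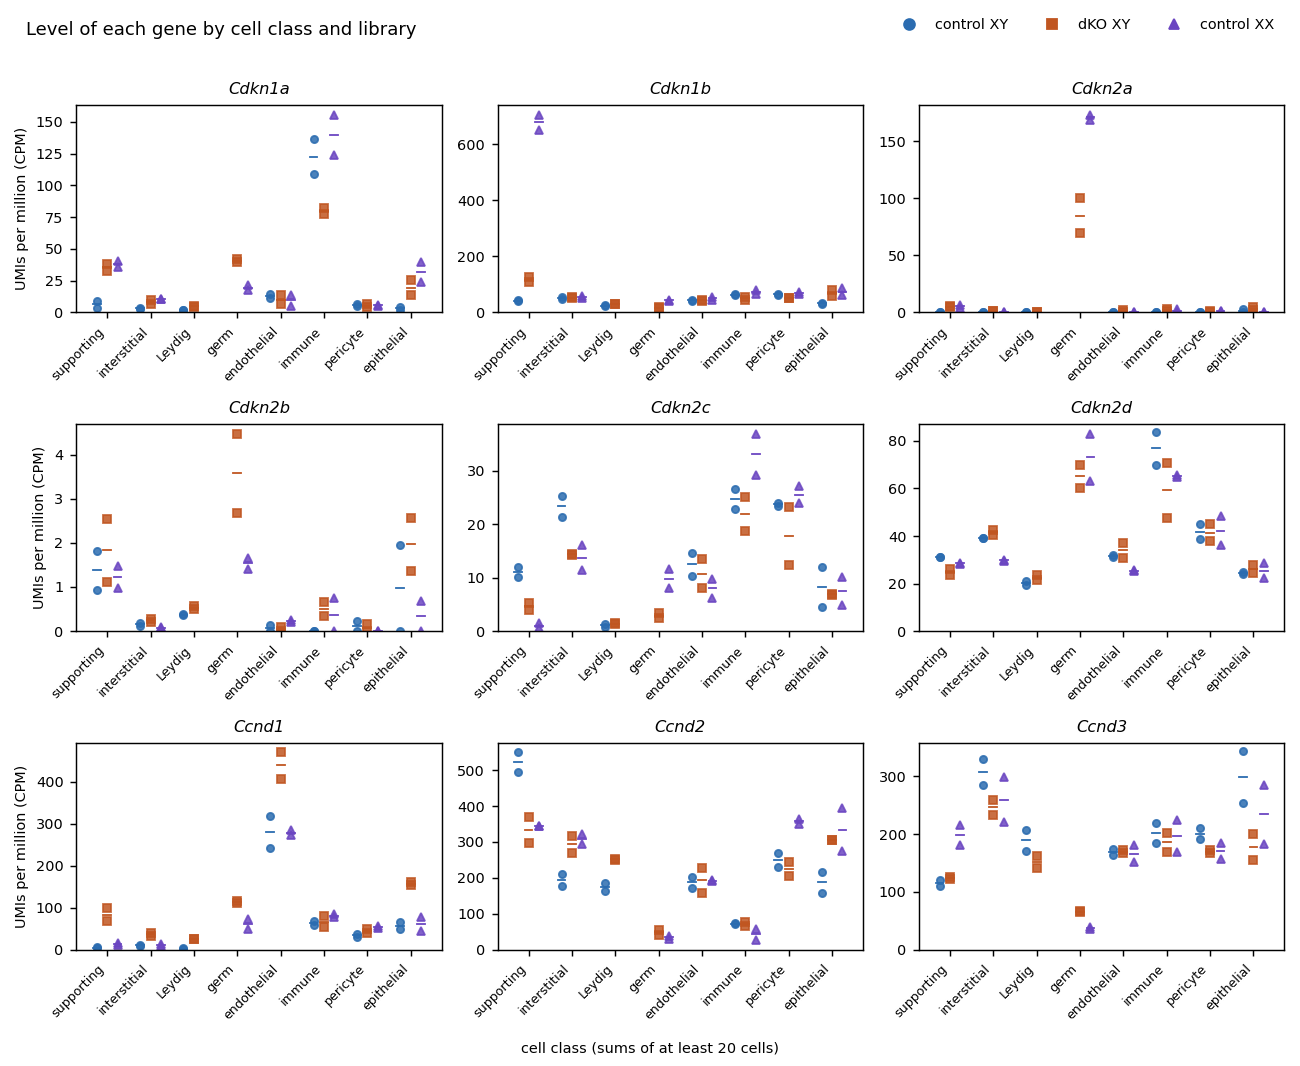
Level of each of the 9 genes (CPM, y axis) in 8 cell types (x axis), 1 panel per gene. Points are libraries with at least 20 cells of the type, coloured by group, and dashes are group means. *Cdkn1b* stands out in control XX supporting cells at 650 and 704 CPM, *Cdkn2a* in germ cells and *Ccnd1* in endothelial cells.

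The comparison the 9 genes bear on is that of arrested granulosa cells with dividing Sertoli cells, with dKO XY supporting cells as the third group. UMIs were summed over the supporting cells of each library and tested with edgeR over 15996 genes, with adjusted p-values under 0.05 called. Between dKO XY and control XY 6 of the 9 genes differed (4 higher, 2 lower), where 16.1% of all genes tested were called (9.58% higher, 6.55% lower). Between control XX and control XY 7 differed (5 higher, 2 lower), where 48.9% of all genes were called (25.2% higher, 23.7% lower), and between dKO XY and control XX 4 differed (2 higher, 2 lower), where 41% were called (21.3% higher, 19.7% lower). The first pair of comparisons share the control XY libraries, so their values are given side by side.

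*Cdkn1b* had the largest fold change of the 9 genes between control XX and control XY. It lies at chr6:134920401-134925513 on the forward strand of GRCm38. Its 250 bases upstream of the start in RefSeq (GRCm38.p6, chr6:134920151-134920400, forward strand) are shown because the transcript differed by more than 15-fold between control XX and control XY supporting cells, with the CCAAT and GGGCGG motifs in capitals.
*Cdkn1b* upstream window: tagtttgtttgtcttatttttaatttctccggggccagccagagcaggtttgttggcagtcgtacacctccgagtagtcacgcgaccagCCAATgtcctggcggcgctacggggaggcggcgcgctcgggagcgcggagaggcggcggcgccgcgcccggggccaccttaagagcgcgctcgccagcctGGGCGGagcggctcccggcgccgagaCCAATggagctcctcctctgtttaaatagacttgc

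In this window CCAAT occurs 2 times and GGGCGG (a GC box) 1 time. These motifs are common: on either strand 33.8% of 32851 promoter windows of the same length held CCAAT and 32.7% held GGGCGG. The letters TGTTTAC (a forkhead motif, in 3.17% of windows), TGACGTCA (a CRE, in 1.55%), GGAAGTGA (an ETS motif, in 2.62%) and TATAAA (in 12.4%) are not in it on either strand. The motifs searched do not overlap each other in the window. Of 11 windows, for 7 of the 9 genes, 3 held CCAAT, 7 held GGGCGG and 1, of *Ccnd3*, held TGTTTAC.

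*Cdkn1b* in supporting cells measured 40.9 and 42.7 CPM in control XY, 107 and 127 CPM in dKO XY and 650 and 704 CPM in control XX. The 3 groups did not overlap, and dKO XY lay much nearer to control XY. The level in control XX was 15.6-fold that in control XY (log2 fold change 3.97 ± 0.15 SE, adjusted p = 5.10e-08), and that in dKO XY 2.82-fold (1.49 ± 0.14, adjusted p = 9.72e-05). dKO XY was 5.55-fold below control XX (log2 fold change -2.47 ± 0.14, adjusted p = 9.46e-07). These 3 calls held in each of 16 alternatives.

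After each cell was thinned to 5000 UMIs, 89.8% and 91.7% of control XX supporting cells held a *Cdkn1b* UMI, whereas the share was 22.5% and 17.6% among control XY cells and 32.7% and 38.0% among dKO XY cells. Before thinning these shares were 99.1% and 99.2%, 60.3% and 59.6%, and 72.4% and 81.3%, at median depths of 18998 to 31481 UMIs. The share in control XY was thus near that of interstitial cells, at 19.5% to 24.8% after thinning. The lowest shares of the cell types, in dKO XY germ cells, were 7.26% and 5.42% after thinning and 34.4% and 28.5% before it. Their median depths were 33072 and 32693 UMIs.

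*Cdkn1a*, on chr17:29090976-29100727, was low in control XY supporting cells, at 3.64 and 9.17 CPM. In dKO XY it was at 38.4 and 32.6 CPM and in control XX at 36.0 and 40.5 CPM. Both groups lay above control XY without overlap and overlapped with each other. The log2 fold change over control XY was 2.39 ± 0.28 SE in dKO XY (5.24-fold, adjusted p = 0.000351) and 2.43 ± 0.28 in control XX (5.40-fold, adjusted p = 5.90e-05). The difference of dKO XY from control XX was -0.04 on the log2 scale, with a 95% interval from -0.57 to 0.48 (adjusted p = 0.898). Both rises depended in size on the library left out. On the log2 scale they ran from 1.96 to 3.29 in dKO XY and from 1.99 to 3.34 in control XX, the highest of each without control XY replicate 2. An unnamed gene model, AC167363.2, overlaps *Cdkn1a* on the opposite strand, and the sources used here do not give whether the counting used strand.

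Other quantities of the same sums are given beside *Cdkn1a*. The 15 other p53 targets listed summed to 393 and 383 CPM in control XY, 357 and 298 CPM in dKO XY and 351 and 369 CPM in control XX. Of these 15 genes 1 rose and 1 fell in dKO XY (median log2 fold change -0.15), and 3 rose and 7 fell in control XX (median -0.38), beside medians of 0.01 and 0.03 and the shares called over all genes given above. Among them *Trp53inp1*, a p53-induced stress gene, rose in both dKO XY (log2 fold change 1.17) and control XX (1.54), and *Phlda3*, an inhibitor of AKT signalling, fell in both (-1.005 and -2.41). Immediate early and dissociation stress genes, 15 in the list, summed to 8376 and 8556 CPM in control XY, 10993 and 4518 CPM in dKO XY and 14411 and 15215 CPM in control XX. Immune markers, from the cell type with most *Cdkn1a*, summed to 4.97 and 6.92 CPM in control XY, 8.13 and 4.86 CPM in dKO XY and 1.83 and 1.57 CPM in control XX supporting cells. The part of the stress genes in the result was not tested.

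*Cdkn2a*, on the reverse strand at chr4:89274471-89294653, gives rise to 2 proteins from alternative first exons joined to the same exon 2. The sequence at both joins is shown because it limits what a count of this gene can mean, with 45 bases of exon 1 in lower case and 45 bases of the shared exon 2 in capitals, from GENCODE M21 transcripts on GRCm38.
p16 transcript, exon 1 at chr4:89281986-89282192: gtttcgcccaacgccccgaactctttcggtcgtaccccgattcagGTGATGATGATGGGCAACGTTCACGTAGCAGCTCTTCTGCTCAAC
p19ARF transcript, exon 1 at chr4:89294334-89294653: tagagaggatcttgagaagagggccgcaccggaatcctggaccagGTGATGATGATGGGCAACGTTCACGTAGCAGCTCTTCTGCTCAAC

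From the start of exon 2 (chr4:89276645-89276985) the transcripts share 575 bases, so counts of their 3′ parts do not separate p16, an INK4 protein, from p19ARF, which acts on the MDM2 and p53 axis. *Cdkn2a* was at 0.606 and 0.374 CPM in supporting cells of control XY, 5.58 and 4.65 CPM in dKO XY and 4.23 and 6.54 CPM in control XX. Both groups lay above control XY and overlapped with each other. The log2 fold changes over control XY were 3.48 ± 0.40 SE in dKO XY (adjusted p = 0.000326) and 3.48 ± 0.40 in control XX (adjusted p = 6.11e-05).

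These *Cdkn2a* values moved with germ cell transcripts. Germ cells held 169 and 173 CPM of *Cdkn2a* in control XX, 99.9 and 69.2 CPM in dKO XY and 66.6 and 69.0 CPM in control XY, the last in 15 and 7 cells. Per 100 germ marker UMIs, germ cells held 4.69 and 4.11 *Cdkn2a* UMIs in control XX and 3.07 and 2.24 in dKO XY. The supporting cells of the same libraries held 4.44 and 5.06 in control XX and 3.63 and 2.23 in dKO XY, so that the ratio was similar in both cell types of these groups. In control XY the ratio was lower in supporting cells, at 0.803 and 1.66 against 2.11 and 1.89 in germ cells, on 5 and 6 *Cdkn2a* UMIs in the supporting cells. Among supporting cells with no germ marker UMI, *Cdkn2a* had 0 and 2 UMIs in 188 and 427 control XY cells, 9 and 4 UMIs in 563 and 214 dKO XY cells and 30 and 6 UMIs in 1435 and 603 control XX cells. These are 0 and 0.179 CPM in control XY, where the count of 0 allows up to 0.608 CPM, 0.619 and 0.628 CPM in dKO XY and 0.828 and 0.457 CPM in control XX. The counts were too few to pass the filter on low counts and were not tested. After thinning, at most 2.53% of the supporting cells of any library held a *Cdkn2a* UMI, against 26.7% to 55.0% of germ cells, and before it 9.08% against 66.7% to 90.3%.

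**Figure D2:**
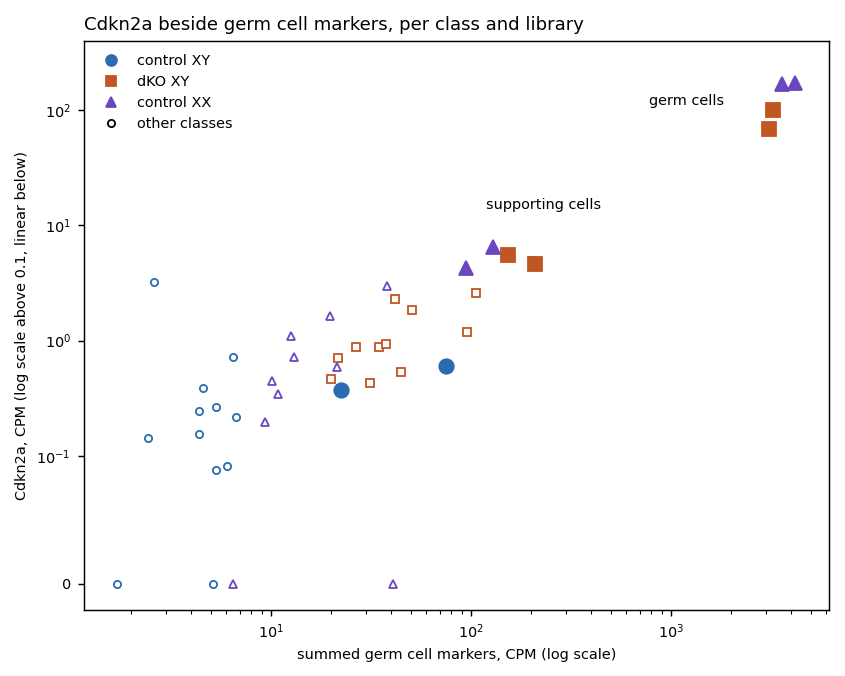
*Cdkn2a* level (CPM, log y axis) against the summed level of 6 germ cell markers (CPM, log x axis) in each library. Large symbols are germ cells and supporting cells, small open symbols other cell types, all sums of at least 20 cells. Supporting cells of dKO XY and control XX, with 95.2 to 209 CPM of germ markers, lie at 4.23 to 6.54 CPM of *Cdkn2a*, and control XY supporting cells lie below on both axes.

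*Cdkn2c*, at chr4:109660876-109667189, had the reverse order of *Cdkn1b*. Its levels were 10.2 and 12.03 CPM in control XY, 5.27 and 3.995 CPM in dKO XY and 0.572 and 1.43 CPM in control XX supporting cells, without overlap between groups. The fall was 12.8-fold in control XX (log2 fold change -3.68 ± 0.37 SE, adjusted p = 2.41e-05) and 2.40-fold in dKO XY (-1.26 ± 0.32, adjusted p = 0.0257). Without cells that held a germ marker UMI *Cdkn2c* measured 10.5 and 9.83 CPM in control XY and 4.06 and 3.46 CPM in dKO XY (log2 fold change -1.37), and the call was lost (adjusted p = 0.0551), as it was without dKO XY replicate 2 (adjusted p = 0.106) or control XY replicate 2 (adjusted p = 0.162). The germ marker filter kept 563 of 1309 and 214 of 1013 dKO XY cells, against 188 of 262 and 427 of 545 control XY cells. In dKO XY germ markers summed to 326 and 452.5 CPM in Sertoli-like subcluster 2 and 38.0 and 63.3 CPM in subcluster 3, both described below. The mix of supporting cells may thus differ after the filter, and its part was not tested. The S phase and G2/M genes, described below, moved with *Cdkn2c*. The pericyte marker sum had the same order of groups, and the interstitial sum was also highest in control XY, both being cell types with more *Cdkn2c*. Their part in the result was not tested.

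*Cdkn2d*, at chr9:21288410-21291407, hardly varied in supporting cells. Control XY had 31.2 and 31.2 CPM, dKO XY 26.3 and 23.5 CPM and control XX 28.1 and 28.9 CPM. The log2 difference from control XY was -0.31 in dKO XY (95% interval -0.59 to -0.04, adjusted p = 0.122) and -0.18 in control XX (-0.46 to 0.09, adjusted p = 0.251). In dKO XY the call was gained when cells with more than 1500 genes were kept (*Cdkn2d* log2 fold change -0.45, adjusted p = 0.0437). *Cdkn2b*, the neighbour of *Cdkn2a* at a distance of 11645 bases, had 0.935 to 2.53 CPM over the 6 libraries, and its groups overlapped. Its log2 difference from control XY was 0.51 in dKO XY (95% interval -0.62 to 1.64) and -0.17 in control XX (-1.33 to 0.98).

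*Ccnd1*, the D-type cyclin best known as a target of growth factor signalling and located at chr7:144929931-144939925, was highest in dKO XY. Its levels in supporting cells were 5.82 and 3.37 CPM in control XY, 67.4 and 98.6 CPM in dKO XY and 15.2 and 10.7 CPM in control XX. All 3 groups were separate, with dKO XY above both controls. dKO XY had 19.3-fold the control XY level (log2 fold change 4.27 ± 0.31 SE, adjusted p = 2.49e-05) and 6.60-fold the control XX level (2.72 ± 0.25, adjusted p = 2.04e-05). Control XX was 2.92-fold above control XY (1.55 ± 0.31, adjusted p = 0.00215). All these calls held in 16 alternatives. *Ccnd1* was also highest in dKO XY in some of the other cell types, whose sums were not tested: endothelial cells held 408 and 470 CPM against 243 to 319 CPM in the control libraries, and epithelial cells 154 and 161 CPM against 44.6 to 78.4 CPM. Pericytes, at 51.5 and 55.8 CPM, and immune cells, at 76.8 and 85.2 CPM, instead had their highest mean in control XX, beside 38.95 and 50.3 CPM and 53.9 and 79.7 CPM in dKO XY. Without the cells that held a germ marker UMI *Ccnd1* measured 5.47 and 3.13 CPM in control XY, 56.4 and 90.8 CPM in dKO XY and 14.7 and 9.89 CPM in control XX. The 7 endothelial markers, from the cell type with most *Ccnd1*, summed to 33.3 to 37.2 CPM in the supporting cells of all 6 libraries, with *Tie1* at 0 in 1 of them. The thinned share of supporting cells with a *Ccnd1* UMI reached 23.4% and 33.3% in dKO XY, beside 6.07% and 5.22% in control XX and 1.15% and 1.65% in control XY, and the lowest shares of the cell types, in control XY Leydig cells, were 1.04% and 1.53%. Unthinned shares in the same order were 53.9% and 71.7%, 22.1% and 16.3%, 11.5% and 7.71%, and 7.28% and 8.21%. *LTO1* overlaps *Ccnd1* on the opposite strand.

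*Ccnd2*, the D-type cyclin known to be required for granulosa cell proliferation in the adult ovary and located at chr6:127125162-127152193, moved the other way. It was at 494 and 551 CPM in supporting cells of control XY, 297 and 369 CPM in dKO XY and 344 and 345 CPM in control XX. Control XY was above both other groups, which overlapped. The log2 fold change was -0.64 ± 0.14 SE in dKO XY (adjusted p = 0.0138) and -0.65 ± 0.14 in control XX (adjusted p = 0.00395). The difference between dKO XY and control XX was 0.02, with a 95% interval from -0.30 to 0.33. The call in dKO XY was lost without cells that held a germ marker UMI (*Ccnd2* log2 fold change -0.32, adjusted p = 0.274). That filter left the uneven shares of cells given for *Cdkn2c*, and the dKO XY cells it kept held 339 to 459 CPM of *Ccnd2*. The part of the mix of cells in this value was not tested. The call was also lost without dKO XY replicate 1 and without control XY replicate 2, and the log2 fold change ran from -0.83 to -0.47 with each library left out.

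*Ccnd3*, at chr17:47505051-47599691, measured 121 and 110 CPM in control XY, 126 and 122 CPM in dKO XY and 182 and 216 CPM in control XX supporting cells. The control XX values lay above all others. Control XX was 1.67-fold above control XY (log2 fold change 0.74 ± 0.13 SE, adjusted p = 0.00101), and dKO XY was 0.62 below control XX on the log2 scale (-0.62 ± 0.13, adjusted p = 0.00354). Between dKO XY and control XY the log2 difference was 0.12 (95% interval -0.17 to 0.41, adjusted p = 0.602), although *Ccnd3* was called when the cells with the highest doublet scores were left out (0.43, adjusted p = 0.0438) and when cells with *Sycp3* or *Tcf21* were (0.42, adjusted p = 0.0458). *Ccnd2* and *Ccnd3* overlap genes of the opposite strand as well.

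**Figure D3:**
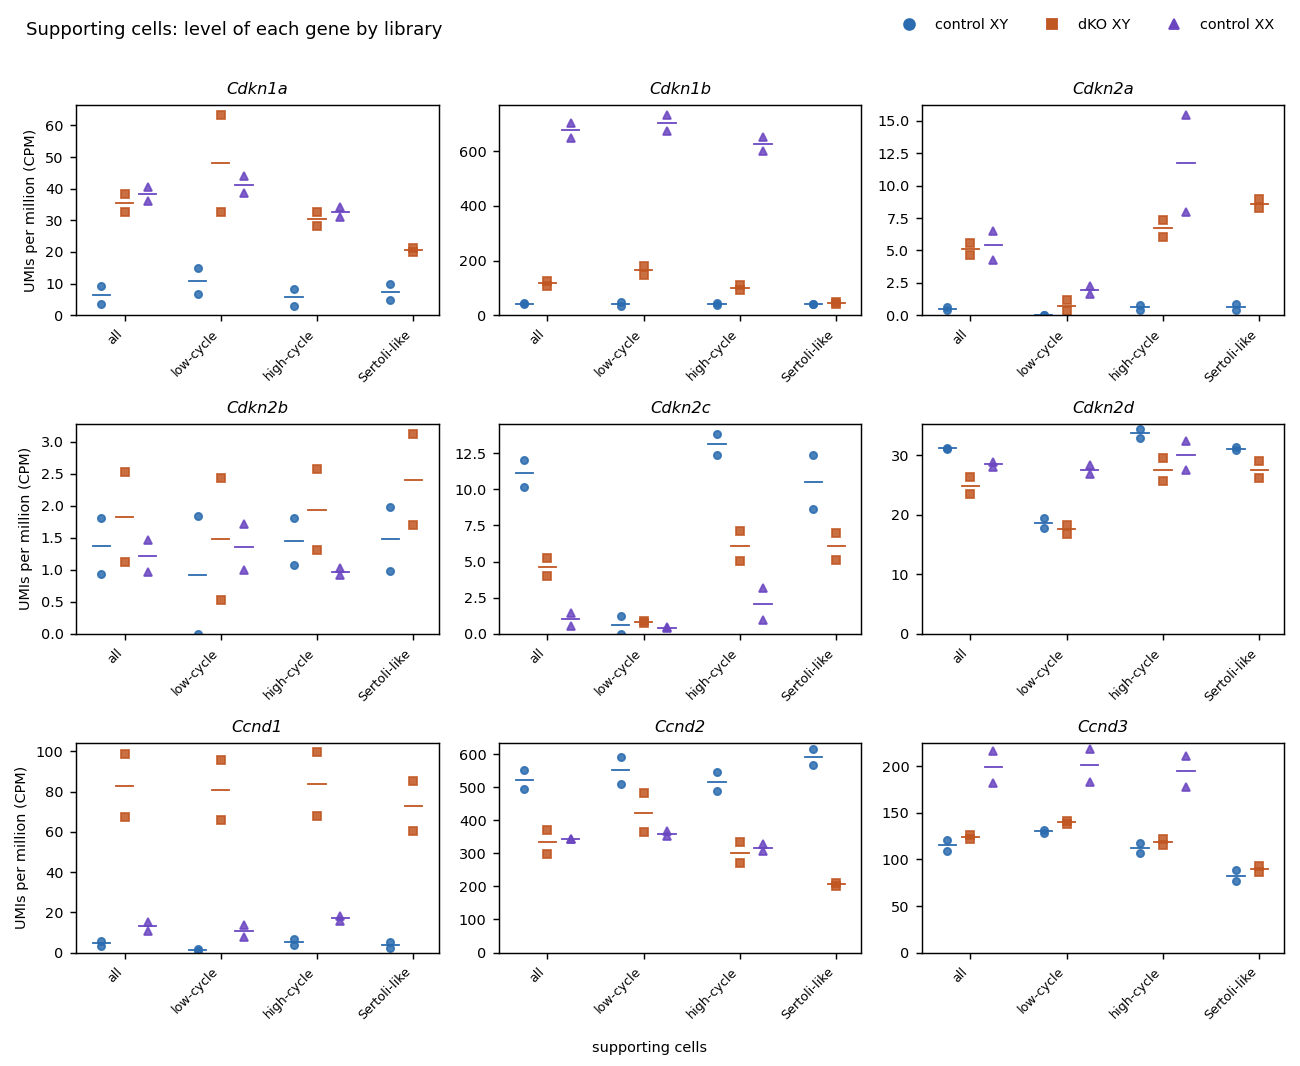
Level of each of the 9 genes (CPM, y axis) in all supporting cells, in low-cycle and high-cycle supporting cells and in Sertoli-like cells (x axis), 1 panel per gene. Points are libraries, coloured by group, and dashes are group means. *Cdkn1b* keeps 3 separate levels and *Ccnd1* is highest in dKO XY in low-cycle and high-cycle cells alike.

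The 25 other genes of the G1/S machinery gave the context of these changes. In dKO XY supporting cells 2 rose and 3 fell relative to control XY, with a median log2 fold change of -0.05, beside 0.01 over all genes tested, of which 16.1% were called (9.58% higher, 6.55% lower). In control XX 4 rose and 11 fell (median -0.40), beside 0.03 over all genes, of which 48.9% were called (25.2% higher, 23.7% lower). *Cdkn1c* (p57), the remaining CIP/KIP inhibitor, measured 76.7 and 72.2 CPM in control XY, 383 and 400 CPM in dKO XY and 1702 and 1787 CPM in control XX. It thus had the same order of groups as *Cdkn1b*, with log2 fold changes of 2.40 in dKO XY and 4.50 in control XX. *Cdk6*, a kinase partner of the D-type cyclins, also rose in both (1.35 and 1.82), from 18.3 and 19.4 CPM in control XY to 43.8 and 51.7 CPM in dKO XY and 76.4 and 61.1 CPM in control XX. The repressor *E2f7* fell in dKO XY by 0.83 and in control XX by 5.24 on the log2 scale, and its relative *E2f8* fell in control XX by 4.07.

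Genes of S phase and of G2/M fell together with *Cdkn2c*. Of 24 S phase genes 10 fell in dKO XY (median log2 fold change -0.38) and 23 in control XX (-1.80), and of 24 G2/M genes 7 fell in dKO XY (-0.56) and all 24 in control XX (-4.04). Over all genes 6.55% fell in dKO XY and 23.7% in control XX. *Top2a*, a topoisomerase of dividing cells, fell by 3.79 in control XX, and the mitotic kinases *Aurkb* and *Plk1* fell by 4.50 and 4.75 on the log2 scale. The G2/M list summed to 2286 and 3258 CPM in control XY, 1902 and 1796 CPM in dKO XY and 165 and 242 CPM in control XX.

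To see the 9 genes in cells with little cycle expression, supporting cells were split by the UMIs of these 48 S phase and G2/M genes, none of which is among the 9. Cells with at most 4 of them after thinning to 5000 UMIs are called low-cycle and the others high-cycle. High-cycle cells made up 78.2% and 80.7% of the supporting cells of control XY, 66.3% and 71.4% of those of dKO XY and 31.5% and 39.4% of those of control XX. The split is a cut through a range, since 23.3% and 24.04% of the cells of control XY, 38.4% and 36.4% of those of dKO XY and 54.5% and 49.6% of those of control XX had 3 to 6 such UMIs. Low-cycle cells still differed in the G2/M sum, which was 207 and 225 CPM in control XY, 216 and 233 CPM in dKO XY and 89.4 and 88.8 CPM in control XX, whereas the S phase sums were between 527 and 592 CPM in all libraries. High-cycle cells were not alike between groups either. Their G2/M sum was 2796 and 3714 CPM in control XY, 2580 and 2300 CPM in dKO XY and 308 and 519 CPM in control XX, and their S phase sum was 811 and 882 CPM in control XX against 1355 to 1892 CPM in the XY libraries.

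Among low-cycle cells *Cdkn1b* measured 49.2 and 33.4 CPM in control XY, 146 and 182 CPM in dKO XY and 675 and 734 CPM in control XX. The order of the groups was that of all supporting cells. *Cdkn1b* in dKO XY was 4.11-fold above control XY (log2 fold change 2.04 ± 0.21 SE, adjusted p = 8.60e-05) and in control XX 16.5-fold (4.04 ± 0.22, adjusted p = 4.95e-08). In dKO XY, low-cycle cells had higher granulosa marker sums than high-cycle cells (2891 and 3748 against 1915 and 2314 CPM). Their Sertoli marker sums were lower (4497 and 2655 against 6171 and 4262 CPM). The part of this mix of cells in the low-cycle results was not tested. Of the 8 genes tested in low-cycle cells 3 were called between dKO XY and control XY (all higher), where 9.34% of all genes were called (5.02% higher, 4.32% lower). Between control XX and control XY 6 were called (5 higher, 1 lower) beside 31.5% of all genes (15.7% higher, 15.8% lower), and between dKO XY and control XX 4 (1 higher, 3 lower) beside 28.8% (15.3% higher, 13.5% lower). Of the 5 genes higher in control XX than in control XY, *Cdkn2a* had 0 UMIs in both control XY libraries. It could therefore only be called higher.

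*Ccnd1* was nearly absent from low-cycle control XY cells, with 5 UMIs over both libraries (1.85 and 0.954 CPM in 57 and 105 cells). It was at 66.1 and 95.8 CPM in dKO XY and at 13.6 and 7.88 CPM in control XX. The ratio of dKO XY to control XY was 59.3, with a 95% counting interval from 25.4 to 183 (edgeR adjusted p = 2.12e-05), and that of control XX to control XY was 9.04 (3.86 to 27.9, adjusted p = 0.00357). The size depended on where low-cycle cells were divided off: with a limit of 2 cycle UMIs the *Ccnd1* log2 fold changes were 6.92 and 3.97, and with a limit of 8 they were 4.73 and 1.80, all called. The second of these calls was lost without control XY replicate 2 (*Ccnd1* adjusted p = 0.0744). *Cdkn1a* measured 6.77 and 14.8 CPM in control XY, 63.4 and 32.6 CPM in dKO XY and 38.5 and 44.0 CPM in control XX, with log2 fold changes over control XY of 2.14 ± 0.37 SE (adjusted p = 0.00251) and 1.82 ± 0.37 (adjusted p = 0.00224).

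Differences of the remaining genes in low-cycle cells were smaller or rested on few UMIs. *Ccnd2* was called between control XX and control XY (log2 fold change -0.68, adjusted p = 0.00985) but had a log2 difference of -0.34 in dKO XY (95% interval -0.72 to 0.04). *Ccnd3* was higher in control XX than in control XY by 0.56 (adjusted p = 0.0125) and lower in dKO XY than in control XX (-0.42, adjusted p = 0.0424). *Cdkn2d* was lower in dKO XY than in control XX (-0.55, adjusted p = 0.0172). *Cdkn2a* had no UMI in low-cycle control XY cells and 158 UMIs in control XX, at least 2.60-fold the level that 3 UMIs over both control XY libraries would give, and its 0.783 CPM in dKO XY was under that level of 0.806 CPM. *Cdkn2c*, with 2 UMIs in control XY, 16 in dKO XY and 30 in control XX, did not pass the filter on low counts. In low-cycle cells the calls of *Cdkn2a*, *Ccnd2* and *Ccnd3* between control XX and control XY were lost in 6, 4 and 4 alternatives, and those of *Ccnd3* and *Cdkn2d* between dKO XY and control XX in 8 and 4.

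High-cycle and low-cycle cells of the same libraries were compared with the library as a block. Of the 9 genes 6 differed (3 higher, 3 lower in high-cycle cells), where 9.76% of all genes were called (6.23% higher, 3.54% lower). *Cdkn2c* was 6.29-fold higher in high-cycle cells (log2 fold change 2.65 ± 0.33 SE, adjusted p = 0.000759), at 12.4 and 13.8 CPM against 1.23 and 0 CPM in control XY, 7.10 and 5.01 CPM against 0.720 and 0.856 CPM in dKO XY and 0.952 and 3.18 CPM against 0.374 and 0.466 CPM in control XX. It was higher in the high-cycle cells of all 6 libraries. *Cdkn2a* was higher as well (2.59 ± 0.26, adjusted p = 0.000203). Germ markers moved with it, at 88.6 and 23.8 CPM in high-cycle against 22.2 and 14.3 CPM in low-cycle cells of control XY, 196 and 256 CPM against 48.4 and 62.6 CPM in dKO XY and 170 and 254 CPM against 56.0 and 60.3 CPM in control XX. Their part in the result was not tested.

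In this fit, which pools the groups, the other differences with the cycle were under 1.5-fold. Within groups some means differed more. *Ccnd1* was at 5.26 CPM in high-cycle against 1.4 CPM in low-cycle cells of control XY, and *Cdkn2d* at 33.7 against 18.7 CPM. *Cdkn1b* was at 100 against 164 CPM in dKO XY. In control XX the same genes were at 17.1 against 10.7 CPM (*Ccnd1*), 30.0 against 27.6 CPM (*Cdkn2d*) and 626.5 against 704 CPM (*Cdkn1b*). *Cdkn1a* was lower in high-cycle cells (log2 fold change -0.54, adjusted p = 0.0428), as were *Ccnd2* (-0.28, adjusted p = 0.0402) and *Ccnd3* (-0.18, adjusted p = 0.0406), and *Cdkn2d* was higher (0.42, adjusted p = 0.0437). These calls were lost in 9 (*Cdkn1a*), 11 (*Ccnd2*), 11 (*Ccnd3*) and 10 (*Cdkn2d*) of 17 alternatives. *Cdkn1b* did not pass the test (-0.36, 95% interval -0.63 to -0.09, adjusted p = 0.0911) but was called in 3 of 17 alternatives. High-cycle cells of control XX still held 603 and 651 CPM of it, against 91.1 and 109 CPM in dKO XY and 38.8 and 44.1 CPM in control XY. *Ccnd1* had a log2 difference of 0.32 (-0.0057 to 0.65, adjusted p = 0.199).

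**Figure D4:**
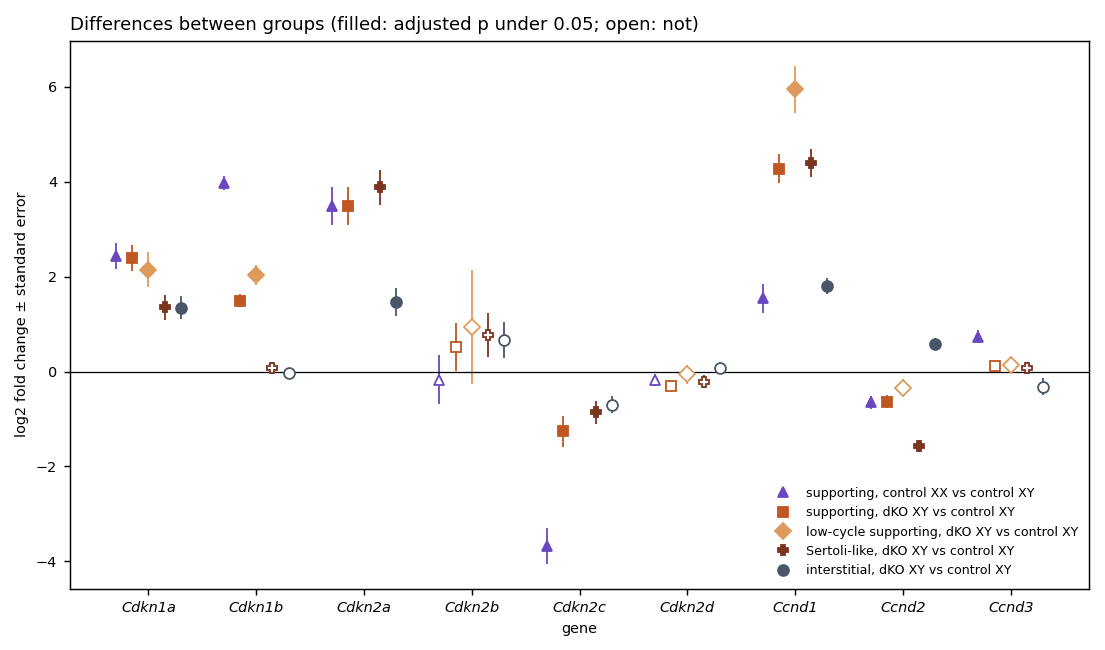
Log2 fold changes (y axis) with their SE (bars) for the 9 genes (x axis) in 5 comparisons. Filled points passed an adjusted p of 0.05 in edgeR. *Ccnd1* in the supporting cell comparisons of dKO XY and *Cdkn1b* in control XX lie highest, and *Cdkn2a* in low-cycle cells is left out because control XY was at 0.

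Supporting cells were also divided into subclusters, named by Sertoli and granulosa markers where these allowed it. Cells with a log-normalized level of *Sycp3* or *Tcf21*, markers of germ and interstitial cells, of at least 1 were first left out, namely 59 and 109 control XY cells, 110 and 80 dKO XY cells, and 263 and 271 control XX cells, so that 6424 of the 7316 supporting cells lay in a subcluster. The interstitial marker sum of the Sertoli-like cells was 225 and 317 CPM in control XY and 265 and 232 CPM in dKO XY, below the sums of all supporting cells. Sertoli-like cells (subclusters 2 and 4) numbered 190 and 406 in control XY and 675 and 418 in dKO XY, so the genotypes could be compared within this class. Its cells were not alike: granulosa markers summed to 956 and 961 CPM in control XY and 1684 and 1813 CPM in dKO XY. Sertoli markers summed to 6732 and 6165 CPM, and 9230 and 7450 CPM. Subcluster 4 held 63 and 167 of the control XY and 197 and 118 of the dKO XY cells. The part of these differences in the results was not tested. In Sertoli-like cells 5 of the 9 genes differed (3 higher, 2 lower in dKO XY), where 14.9% of all genes were called (8.78% higher, 6.15% lower). *Cdkn1b* was not among them: it measured 39.3 and 42.1 CPM in control XY and 46.4 and 42.6 CPM in dKO XY, with a log2 difference of 0.08 (95% interval -0.21 to 0.37, adjusted p = 0.773). *Ccnd1* measured 5.14 and 2.31 CPM in control XY and 60.5 and 85.3 CPM in dKO XY Sertoli-like cells, a 21.0-fold difference (log2 fold change 4.39 ± 0.30 SE, adjusted p = 7.33e-06).

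*Ccnd2* differed more in this class than in all supporting cells, at 568 and 615 CPM in control XY and 203 and 210 CPM in dKO XY. The fall was 2.96-fold (log2 fold change -1.57 ± 0.13 SE, adjusted p = 2.58e-05), beside -0.64 in all supporting cells and -0.83 in those without *Sycp3* or *Tcf21*. *Cdkn1a* rose 2.55-fold, from 4.81 and 9.97 CPM to 19.8 and 21.3 CPM (1.35 ± 0.25, adjusted p = 0.00438). *Cdkn2c* fell (-0.86 ± 0.25, adjusted p = 0.0378), a call lost in 4 alternatives. *Cdkn2a* rose from 0.829 and 0.412 CPM to 8.95 and 8.25 CPM (3.88 ± 0.37, adjusted p = 5.16e-05). The control XY values rest on 5 and 5 UMIs, against 189 and 141 in dKO XY. Germ marker sums were 99.9 and 27.1 CPM in control XY and 242 and 342 CPM in dKO XY, and their part in the result was not tested. *Cdkn2d* and *Ccnd3* had log2 differences of -0.22 (95% interval -0.52 to 0.09) and 0.07 (-0.22 to 0.37).

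The levels over subclusters are given as a description, without a test. In dKO XY *Cdkn1b* was at 40.5 and 37.4 CPM in subcluster 2 and at 56.4 and 53.1 CPM in subcluster 4, both Sertoli-like, and at 176 and 193 CPM in subcluster 3, which was unnamed and held 451 and 470 dKO XY cells. Control XY cells of subcluster 3, 13 and 30 in number, held 62.6 and 50.6 CPM. In control XX the granulosa-like subcluster 0 held 727 and 827 CPM and the unnamed subcluster 1 held 529 and 522 CPM of *Cdkn1b*, and the 48 and 16 dKO XY cells in subcluster 1 held 331 and 261 CPM. Within dKO XY the *Cdkn1b* level was thus lower in the Sertoli-like subclusters than in the cells that grouped with control XX.

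*Ccnd2* was also lowest in the Sertoli-like cells of dKO XY, at 216 and 221 CPM in subcluster 2, 179 and 186 CPM in subcluster 4, beside 435 and 523 CPM in subcluster 3, whereas control XY held 594 and 673 CPM in subcluster 2 and 524 and 565 CPM in subcluster 4. In subcluster 3 the order was reversed, since its 13 and 30 control XY cells held 225 to 347 CPM, below dKO XY. *Ccnd1* was at 45.3 to 138 CPM in the dKO XY cells of all 6 subclusters, the smallest of these sums being of 5 cells, and at most 20.01 CPM in any subcluster of the controls. The unnamed subcluster 5 had meiotic genes such as *Sycp3* among its top genes. Its dKO XY cells held 600 and 494 CPM of germ markers and 102 to 120 CPM of *Ccnd1*, near the 112 and 115 CPM of dKO XY germ cells. The part of germ cell transcripts in this value was not tested. *Cdkn2c* split the Sertoli-like cells of both genotypes: subcluster 4 held 19.4 and 20.7 CPM in control XY and 16.3 and 13.1 CPM in dKO XY, and subcluster 2 held 2.13 and 2.51 CPM and 1.58 and 1.14 CPM. All cells of subcluster 4 were high-cycle, beside 69.3% and 71.1% of subcluster 2 in control XY and 66.7% and 78.3% in dKO XY. *Cdkn1a* in control XX was at 56.8 and 78.3 CPM in subcluster 1 and at 27.3 and 28.6 CPM in subcluster 0.

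**Figure D5:**
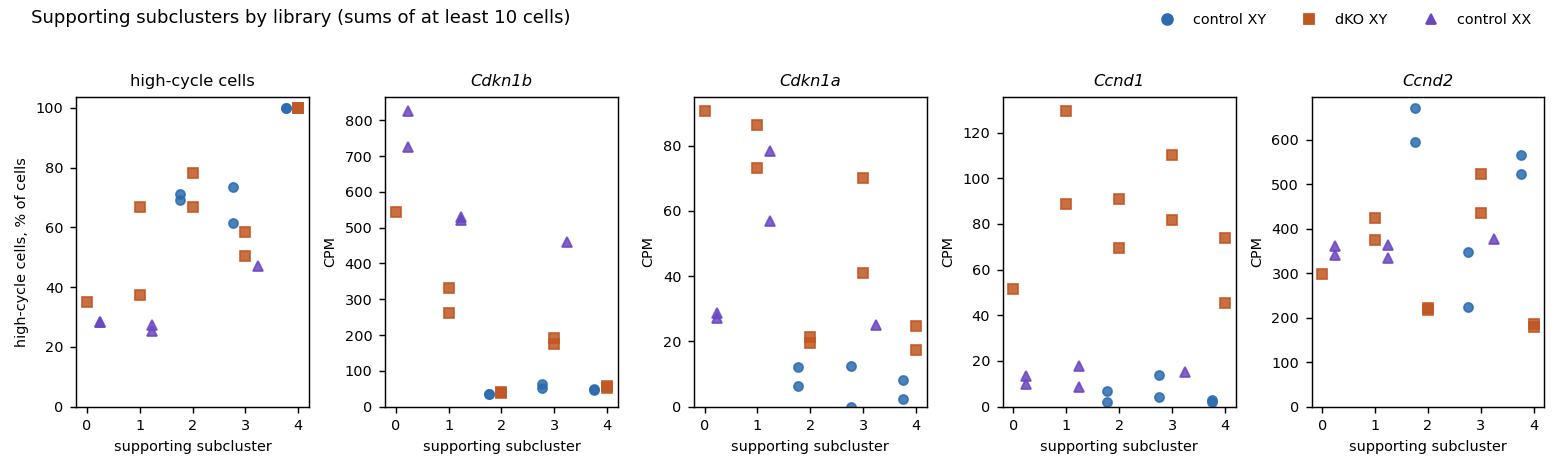
Percent of high-cycle cells and levels (CPM) of *Cdkn1b*, *Cdkn1a*, *Ccnd1* and *Ccnd2* (y axes) in supporting subclusters 0 to 4 (x axis). Points are libraries with at least 10 cells of the subcluster, coloured by group. In dKO XY *Cdkn1b* is at 37.4 to 56.4 CPM in subclusters 2 and 4 and at 176 and 193 CPM in subcluster 3, while *Ccnd1* is raised in each.

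Interstitial cells, the most numerous class, were the somatic cells outside the supporting lineage in which the genes were compared across all 3 groups. Of the control XY cells 63.2% lay in cluster 0 and 32.1% in cluster 1, 99.8% of the control XX cells lay in cluster 2, and dKO XY cells were spread over the 3 clusters. High-cycle cells made up 64.2% and 69.0% of the control XY cells, 79.7% and 85.3% of the dKO XY cells and 53.4% and 55.6% of the control XX cells. Of the 9 genes 4 differed in dKO XY (all higher), where 6.36% of all genes were called (3.76% higher, 2.6% lower), and 4 in control XX (2 higher, 2 lower), where 25.5% were called (12.1% higher, 13.4% lower).

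*Cdkn1b* showed little of its supporting cell pattern here. It measured 56.1 and 49.2 CPM in control XY, 53.9 and 49.9 CPM in dKO XY and 59.8 and 51.6 CPM in control XX interstitial cells, with overlapping groups. The log2 difference from control XY was -0.03 in dKO XY (95% interval -0.27 to 0.22) and 0.14 in control XX (-0.10 to 0.39). *Ccnd1* rose in dKO XY, from 8.97 and 12.2 CPM to 33.5 and 40.5 CPM (log2 fold change 1.80 ± 0.17 SE, adjusted p = 0.00275), while control XX was at 13.0 and 9.93 CPM. *Ccnd2* was lowest in control XY, at 177 and 211 CPM, and rose in dKO XY (271 and 316 CPM, 0.59 ± 0.12, adjusted p = 0.0269) and in control XX (323 and 295 CPM, 0.73 ± 0.12, adjusted p = 0.00283). Its direction was thus opposite to that in supporting cells, and the difference between the cell types, tested as an interaction with the library as a block, was -1.27 ± 0.09 SE for dKO XY (adjusted p = 1.90e-05) and -1.43 ± 0.09 for control XX (adjusted p = 9.26e-07). In these interactions 7 of the 9 genes were called for dKO XY (5 higher, 2 lower), where 19.2% of all genes were called (8.31% higher, 10.9% lower), and 7 for control XX (5 higher, 2 lower), where 45.6% were called (21.8% higher, 23.9% lower).

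*Cdkn1a* rose in the interstitial cells of both groups, from 2.45 and 3.83 CPM in control XY to 9.45 and 6.53 CPM in dKO XY (log2 fold change 1.35, adjusted p = 0.0188) and 10.5 and 10.7 CPM in control XX (1.83, adjusted p = 0.00125). *Cdkn2c* measured 25.3 and 21.4 CPM in control XY, 14.5 and 14.3 CPM in dKO XY and 11.4 and 16.1 CPM in control XX. Its fall passed the test in control XX (-0.68, adjusted p = 0.0288), and the value in dKO XY was -0.70 (adjusted p = 0.0639), which was called in 8 alternatives. *Cdkn2d* fell in control XX (-0.33, adjusted p = 0.0298). In control XX the call of *Cdkn2c* was lost in 2 of 14 alternatives, without control XY replicate 1 (adjusted p = 0.152) and without control XX replicate 1 (adjusted p = 0.0757). That of *Cdkn2d* was lost in 6, among them without control XY replicate 1 (adjusted p = 0.202), control XY replicate 2 (adjusted p = 0.191) or control XX replicate 1 (adjusted p = 0.0852). *Cdkn2a* was called in dKO XY (1.47, adjusted p = 0.0277) at 0.880 and 0.875 CPM against 0.385 and 0.247 CPM, where germ markers summed to 26.7 and 34.6 CPM in dKO XY and 4.60 and 4.39 CPM in control XY. Their part in it was not tested, and in interstitial cells of dKO XY the calls of *Cdkn2a* and *Ccnd2* were lost in 4 alternatives each and that of *Cdkn1a* in 1.

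Leydig cells, the androgen producing cells of the testis, could be compared between the XY groups. In this class 4 of the 9 genes differed, all higher in dKO XY, where 8.53% of all genes were called (5.49% higher, 3.04% lower). *Cdkn2a*, counted among the 4, passed the filter on low counts only through its dKO XY sums, so its direction is no added result. *Ccnd1* measured 2.20 and 3.35 CPM in control XY and 26.0 and 25.7 CPM in dKO XY, an 8.98-fold difference (log2 fold change 3.17 ± 0.18 SE, adjusted p = 0.000667). *Ccnd2* rose from 164 and 187 CPM to 250 and 254 CPM (0.49 ± 0.09, adjusted p = 0.0175), and *Cdkn1a* from 2.20 and 2.08 CPM to 5.42 and 4.38 CPM (1.16 ± 0.20, adjusted p = 0.0121). *Cdkn2a* was called at under 1 CPM (2.55, adjusted p = 0.0315), on 3 and 4 UMIs in control XY and 20 and 15 UMIs in dKO XY. Germ marker sums were 21.7 and 31.3 CPM in dKO XY and 5.36 and 6.01 CPM in control XY. Of the genes called in Leydig cells, *Cdkn2a* lost its call in 5 alternatives and *Cdkn1a* and *Ccnd2* in 2 each. *Cdkn1b* had a log2 difference of 0.33 (95% interval 0.09 to 0.57, adjusted p = 0.0947) and was called in the fit with a replicate block (*Cdkn1b* adjusted p = 0.0128), as was *Ccnd3* (adjusted p = 0.00457). High-cycle cells made up 17.6% and 19.7% of Leydig cells in control XY and 36.7% and 38.4% in dKO XY, and the part of this share in the results was not tested.

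There were 413 and 277 germ cells from dKO XY and 258 and 228 from control XX, and the pair of groups differed both in genotype and in chromosomal sex. The fit also held control XY replicate 1, with 15 germ cells. Its tests had 44.87 degrees of freedom, most of them from the sharing of the spread across genes. Here 8 of the 9 genes differed (5 higher, 3 lower in dKO XY), where 49.7% of all genes were called (24.9% higher, 24.7% lower). *Cdkn2a* was lower in dKO XY, as given above (log2 fold change -0.94 ± 0.19 SE, adjusted p = 4.50e-05). *Cdkn1b* was lower as well, at 16.3 and 18.3 CPM against 41.5 and 45.2 CPM (-1.26 ± 0.20, adjusted p = 1.43e-06), although without the highest doublet scores *Cdkn1b* lost its call (-0.43, adjusted p = 0.154). *Cdkn2c* was at 3.37 and 2.39 CPM in dKO XY and 7.97 and 11.6 CPM in control XX (-1.66 ± 0.31, adjusted p = 2.32e-05).

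The genes that were higher in dKO XY germ cells included all 3 D-type cyclins. *Ccnd1* was at 115 and 112 CPM against 73.0 and 49.0 CPM in control XX (log2 fold change 0.97 ± 0.19 SE, adjusted p = 2.90e-05), and *Ccnd3* at 65.0 and 66.6 CPM against 38.8 and 36.5 CPM (0.87 ± 0.18, adjusted p = 0.000112). *Ccnd2* was at 42.1 and 55.6 CPM against 38.6 and 30.3 CPM (0.56 ± 0.19, adjusted p = 0.0140), a call lost in 4 alternatives. *Cdkn1a* was at 41.7 and 39.4 CPM against 17.6 and 21.2 CPM (1.13 ± 0.21, adjusted p = 1.21e-05), and *Cdkn2b* at 4.47 and 2.68 CPM against 1.66 and 1.41 CPM (1.31 ± 0.43, adjusted p = 0.00950), a call lost with DESeq2 (adjusted p = 0.180) and without dKO XY replicate 1 (*Cdkn2b* log2 fold change 0.84, adjusted p = 0.280). *Cdkn2d* had a log2 difference of -0.09 (95% interval -0.46 to 0.28).

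The genes whose levels followed those of the 9 most closely over 44 sums of a cell type in a library are given as a description, as Pearson's r of log2(CPM + 1) among 9324 genes, over points that share libraries and depth. *Cdkn1b* was followed by *RP23-253N17.1* (r = 0.791) and *Scyl2* (0.777), and *Cdkn1a* by *Tspan33* (0.847) and *Dock2* (0.831), a gene of immune cell migration. *Cdkn2a* was followed by *Tuba3a* (0.964) and *Rhox1* (0.960), and *Cdkn2c* by *Neil3* (0.915) and *Rbl1* (0.909), the last a member of the Rb family. *Cdkn2d* was followed by the histone chaperone *Asf1b* (0.891) and *Pde3b* (0.876). *Ccnd1* was followed by *Coro1c* (0.812) and *Dgkz* (0.802), *Ccnd2* by a gene model named after its clone (0.913) and *Cc2d2a* (0.907), and *Ccnd3* by *Zfp36l1* (0.899) and *H3f3a* (0.897). *Cdkn2b* was below 20 CPM in every cell type and was left out.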

How the data were processed

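For each library the authors deposited a matrix of UMI counts per gene and cell barcode, made with Cell Ranger on mm10 and not normalized, and the submitters' processing notes name Seurat 4.0, where the study's methods name an earlier release. The 9 genes and all gene lists were chosen with earlier results of these data known. Cells with over 2500 and under 9000 genes, under 25% mitochondrial and under 20% *Hbb* UMIs were kept in R 4.3.3.

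Cells were clustered with Seurat 5.3.0 (3000 variable genes without the 9 genes and the G1/S list, 20 dimensions, resolution 0.21) and supporting cells again (8 dimensions, resolution 0.25), and clusters were named from marker lists. The Scrublet method of scanpy 1.11.5 marked only 4 to 79 cells per library as doublets, so all cells were kept and an alternative leaves out the 8% with the highest scores. Counts were summed per class and library, with at least 10 cells per sum, and tested with edgeR 4.0.16 (filterByExpr, TMM, glmQLFit and glmQLFTest), with all groups sharing the estimate of the spread and Benjamini-Hochberg adjustment over all genes tested. Fits of Leydig and Sertoli-like cells held only XY libraries. The SE of a log2 fold change was taken from its F statistic, and 95% intervals use the t distribution with the degrees of freedom of the test. Counting intervals, and the limit of 3 UMIs set for a count of 0, cover counting error only. With 2 libraries a group an exact permutation test cannot go below a two-sided p of 0.333.

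Named genes are the 9 genes, at most 6 genes of each list with the smallest p between control XX and control XY supporting cells, and the 2 nearest genes by correlation. *Cdk2*, *Cdk4*, *Cdk6*, *Cdkn1c*, *Rb1*, *Ccne1* and *Ccne2* of the G1/S list could be named whatever their p. Alternatives were DESeq2 1.42.0, a replicate block, genes with low counts kept, a fit of only the compared groups, a limit of 1500 genes per cell, all variable genes, clustering without cycle genes, other cycle limits, doublets and cells with *Sycp3* or *Tcf21* left out and each library left out. Leaving out cells with germ marker UMIs was added after the data were seen. The tests were tested on simulated data. Promoter sequences are from RefSeq (GRCm38.p6) and coordinates from GENCODE M21 on GRCm38, the assembly of mm10.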

Additional observations from a re-analysis of the deposited data

Results flagged for a closer look

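The change of a gene between groups was compared between supporting and interstitial cells of the same libraries with an interaction term in edgeR, in which 19.2% of all genes were called for dKO XY and 45.6% for control XX. Positive values are a larger log2 fold change in supporting cells. Of the 9 genes 7 were called in each.

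For dKO XY against control XY the difference was 2.46 ± 0.27 SE for *Ccnd1* (adjusted p = 0.000227), 1.89 ± 0.48 for *Cdkn2a* (adjusted p = 0.0216), 1.46 ± 0.15 for *Cdkn1b* (adjusted p = 0.000179), 1.08 ± 0.20 for *Cdkn1a* (adjusted p = 0.00498) and 0.40 ± 0.12 for *Ccnd3* (adjusted p = 0.0400). It was -0.44 ± 0.10 for *Cdkn2d* (adjusted p = 0.0134) and -1.27 ± 0.09 for *Ccnd2* (adjusted p = 1.90e-05), the gene that was called in both cell types with opposite signs. The calls of *Cdkn2a*, *Cdkn2d* and *Ccnd3* were lost in 4 alternatives each, all of them for *Cdkn2a* with a library of control XY or dKO XY left out, and that of *Cdkn1a* in 1.

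For control XX against control XY the difference was 3.77 ± 0.15 for *Cdkn1b* (adjusted p = 7.76e-08), 2.62 ± 0.50 for *Cdkn2a* (adjusted p = 0.00169), 1.35 ± 0.29 for *Ccnd1* (adjusted p = 0.00324), 0.88 ± 0.12 for *Ccnd3* (adjusted p = 0.000176) and 0.62 ± 0.20 for *Cdkn1a* (adjusted p = 0.0312). It was -3.06 ± 0.26 for *Cdkn2c* (adjusted p = 6.83e-06) and -1.43 ± 0.09 for *Ccnd2* (adjusted p = 9.26e-07). The call of *Cdkn1a* was lost in 5 alternatives and that of *Ccnd1* without control XY replicate 2 (*Ccnd1* 0.66, adjusted p = 0.0883). Germ marker sums, which rise with *Cdkn2a*, were higher in supporting than in interstitial cells in all 6 libraries, and their part in its values was not tested.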

How the results depend on the processing

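No value of the 9 genes changed sign while called under the alternatives: over all comparisons 1664 values kept their side of the threshold, 130 lost the call and 31 gained it. Counts of all genes called moved by over 1.5 times in these cases. Without cells that held a germ marker UMI the count fell from 6552 to 4306 (supporting cells, dKO XY vs control XX), from 2049 to 1275 (Sertoli-like cells) and from 1447 to 505 (high-cycle vs low-cycle). With a cycle limit of 2 in place of 4, all genes called in low-cycle cells went from 1301 to 829, from 4386 to 2772 and from 4008 to 2346 (dKO XY vs control XY, control XX vs control XY, dKO XY vs control XX), and high-cycle vs low-cycle to 589, whereas a limit of 8 gave 3032. That last comparison had 842 calls without the block, 930 without the highest doublet scores and 592 without cells with *Sycp3* or *Tcf21*. Without the filter on low counts interstitial dKO XY calls went from 1078 to 1654 and Leydig calls from 1234 to 2463, and all variable genes gave 716 for Leydig cells. DESeq2 gave 4516 in place of 7271 for germ cells. The cause was not tested.

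Replicate numbers are shared between groups, but the labels do not say that they pair the libraries, and deviations of same-numbered libraries from their group means correlated at -0.208 to 0.0883. With a replicate block all genes called were 671 in interstitial (dKO XY) and 2717 in Leydig cells, and the block moved no other count by over 1.5 times. It gave 2224, 7150 and 5841 in supporting, 1333, 4093 and 3535 in low-cycle, 2507 in Sertoli-like, 3500 in interstitial (control XX) and 6572 in germ cells. Without the block the interaction of cell type and group gave 1325 in place of 3318 (dKO XY) and 5684 in place of 7895 (control XX).

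With each library left out in turn, all genes called ranged from 1163 to 2702, 5528 to 7817 and 5164 to 6538 in supporting cells, 644 to 1279, 2851 to 4436 and 2604 to 4315 in low-cycle cells, 1219 to 2196 in Sertoli-like cells, 639 to 1845 between high-cycle and low-cycle cells, 276 to 1197 and 2658 to 4584 in interstitial cells, 966 to 1476 in Leydig cells, 5175 to 7058 in germ cells, and 1758 to 3353 and 6260 to 7624 for the interactions. The lowest of each that lay over 1.5 times below the main count came without control XY replicate 2 (1163, 644, 2851, 1219 and 2658), control XX replicate 2 (2604), dKO XY replicate 1 (639), control XY replicate 1 (276) and dKO XY replicate 2 (1758). Others over 1.5 times below were 1657, 641 and 687 without dKO XY replicate 2 (supporting dKO XY vs control XY, high-cycle vs low-cycle, interstitial dKO XY), 370 and 1853 without control XY replicate 2 (interstitial dKO XY, interaction for dKO XY) and 2665 and 2120 without control XY replicate 1 (interstitial control XX, interaction for dKO XY). A lone library left in a group is assumed to vary like the others. Depth limits *Cdkn2a*, *Cdkn2b* and *Cdkn2c* most, whose low-cycle sums in control XY held 3 UMIs or fewer.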
